A study of Mus musculus with 4 samples.

Results

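The genes described here, grouped as pre-B-cell receptor components, are Vpreb1, Igll1, Vpreb3, Cd79a and Cd79b. They encode parts of the receptor and its signalling chains, except Vpreb3, whose protein acts inside the cell during receptor assembly. The 5 genes were taken by name, with earlier results of these data known. Every probe set of the Affymetrix MOE430_2 mouse array that the platform annotation assigns to a single one of them was used. This gave 6 probe sets for the 5 genes, of 34945 such probe sets for 18193 genes. Each gene had 1 probe set except Igll1, which had 2.

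The pre-B-cell receptor is the first receptor complex that a developing B cell carries on its surface, made before any light chain gene has been rearranged. A rearranged heavy chain pairs with a surrogate light chain, which is built from the VpreB protein and lambda5, the product of Igll1. The signal enters the cell through the Cd79a and Cd79b chains, whose tails carry tyrosine motifs that Src-family kinases phosphorylate. Genes of this complex are known as early transcripts of the B lineage in mouse bone marrow, where they appear before cells are committed to it.

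Expression was measured in CLP_RAGhigh cells (2 arrays) and in CLP_RAGlow cells (2 arrays), which are fractions of the common lymphoid progenitor, a bone marrow cell that can give rise to B, T and natural killer cells. The sample descriptions name the fractions by high and by low GFP. Both were sorted from bone marrow of C57Bl6 mice 8 to 12 weeks of age, with 2000 cells for each array. The labels do not describe the GFP reporter, the allele that carries it or the number of animals, and they call the replicates biological without naming separate animals or sorts, so p-values reflect only how far these 4 samples vary.

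All values are log2 of the deposited RMA intensity unless called an intensity. The RMA steps are background correction, normalization across arrays and the joining of each set's probes. Genes or groups below 3.88, the median of all probe sets and arrays, are called dim. Median intensity was 14.5 to 14.8 across arrays. The ratio of 3' to 5' Actb control probe sets, which grows when RNA is shorter or less fully copied, was 16.2 and 9.62 on the CLP_RAGhigh arrays and 13.5 and 24.5 on the CLP_RAGlow arrays. Of 12 markers of common lymphoid progenitors 10 were measured, and all 10 were at or above the median, as were 11576 of all 18193 genes. Il7r, the interleukin-7 receptor chain, averaged 11.23 in CLP_RAGhigh and 10.42 in CLP_RAGlow, and the cytokine receptor gene Flt3 averaged 10.91 and 10.77 in the same order. Rag1, a subunit of the V(D)J recombinase after which the groups are named, averaged 10.77 in CLP_RAGhigh and 8.13 in CLP_RAGlow. Ly6d averaged 8.80 and 6.30 in the same order. The mean was higher in CLP_RAGhigh for 7 of the 10 markers and lower for 3. These 3 were Cd34 (9.10 against 10.22 in CLP_RAGlow), Cd27 (8.21 against 8.64) and Kit (7.70 against 7.99). Both CLP_RAGhigh arrays were above both CLP_RAGlow arrays for 5 markers and below them for 2, where 15.4% and 15.8% of all genes were. The 5 were Rag1, Rag2, Ly6d, Il7r and Dntt. The groups are named after the Rag genes, so the upward count is not independent of how the groups were defined. Dntt was separated by little, with means of 13.475 in CLP_RAGhigh and 13.414 in CLP_RAGlow.

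The promoters of 4 of the 5 genes were in the RefSeq promoter table used here (GRCm38.p6), and the promoter of Cd79b is not shown. The 250 bases before each start are printed, 5′ to 3′, to show where they hold letters that known B-lineage regulators bind. Capitals mark matches on either strand to CCCNNGGG or CNCNNGGGA (forms of the EBF1 site), CAGNTG (an E-box form bound by E proteins), ATGCAAA (most of the octamer that POU factors bind) and TGTGGT (the RUNX site). No 2 matches overlap in these windows. Vpreb3 has several RefSeq transcripts, and its window, as the table gives it, lies inside the full span of the gene, so its positions count from the start that the table uses.
Vpreb1, chr16:16869256-16869505, minus strand: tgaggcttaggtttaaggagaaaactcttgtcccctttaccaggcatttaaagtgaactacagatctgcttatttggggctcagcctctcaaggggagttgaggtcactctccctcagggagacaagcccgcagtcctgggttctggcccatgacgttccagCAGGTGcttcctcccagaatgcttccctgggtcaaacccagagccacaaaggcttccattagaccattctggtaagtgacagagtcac
Igll1, chr16:16863986-16864235, minus strand: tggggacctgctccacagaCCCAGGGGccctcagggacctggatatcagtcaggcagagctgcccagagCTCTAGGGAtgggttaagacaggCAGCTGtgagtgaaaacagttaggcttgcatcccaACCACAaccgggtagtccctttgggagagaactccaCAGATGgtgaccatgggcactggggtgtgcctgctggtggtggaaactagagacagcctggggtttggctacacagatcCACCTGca
Vpreb3, chr10:75948050-75948299, plus strand: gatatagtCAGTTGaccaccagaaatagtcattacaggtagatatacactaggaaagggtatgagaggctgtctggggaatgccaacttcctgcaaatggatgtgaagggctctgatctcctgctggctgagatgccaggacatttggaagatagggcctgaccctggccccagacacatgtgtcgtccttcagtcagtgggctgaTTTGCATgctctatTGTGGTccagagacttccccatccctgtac
Cd79a, chr7:24897247-24897496, plus strand: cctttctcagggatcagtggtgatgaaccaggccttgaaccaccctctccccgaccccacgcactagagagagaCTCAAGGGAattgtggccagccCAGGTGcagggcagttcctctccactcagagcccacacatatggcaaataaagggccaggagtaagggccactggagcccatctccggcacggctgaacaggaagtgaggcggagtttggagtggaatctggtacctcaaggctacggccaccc

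CAGNTG was found in 4 of 4 windows, against 44.8% of 32851 promoter windows of the same length. CNCNNGGGA was found in Igll1 and Cd79a (2 of 4, against 18.1% of all windows) and CCCNNGGG in Igll1 (1 of 4, against 11.8%). The Cd79a match, CTCAAGGGA, lay at positions -176 to -168, counted so that the base just before the start is -1. ATGCAAA was found in Vpreb3 alone, read from the other strand as TTTGCAT at -44 to -38 (1 of 4, against 4.12% of all windows). TGTGGT was found in Vpreb3, at -30 to -25, and in Igll1 (2 of 4, against 14.0%). The only match in the Vpreb1 window was to CAGNTG, at -88 to -83, and the Igll1 window matched all of these motifs except ATGCAAA. A match is a run of letters and not a shown binding site, and the motifs were picked with the sequences and earlier results known. Any bearing of the matches on the expression differences was not tested.

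All 5 genes had a higher mean in CLP_RAGhigh than in CLP_RAGlow, as did 50.6% of all genes (n = 2 per group). Vpreb1 was higher by 8.76-fold, Cd79a by 4.13-fold, Vpreb3 by 2.83-fold, Cd79b by 1.91-fold and Igll1 by 1.68-fold. For 4 of them, all but Igll1, the lower CLP_RAGhigh array was above the higher CLP_RAGlow array, as it was for 15.4% of all genes. The same 4 genes had an unadjusted limma p under 0.05 with the higher mean in CLP_RAGhigh, as did 2.35% of all genes. With Benjamini-Hochberg adjustment over all genes, limma called 0 of the 5 and 0.0% of all genes at 0.05. The median difference of the 5 genes was 1.50 on the log2 scale, against 0.0028 over all genes. Because the 5 genes were chosen with earlier results of these data known, these comparisons with all genes describe them and are not an independent test. In RNA from sorted populations, fewer cells that express a gene and less of its RNA per cell cannot be told apart.

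**Figure D1:**
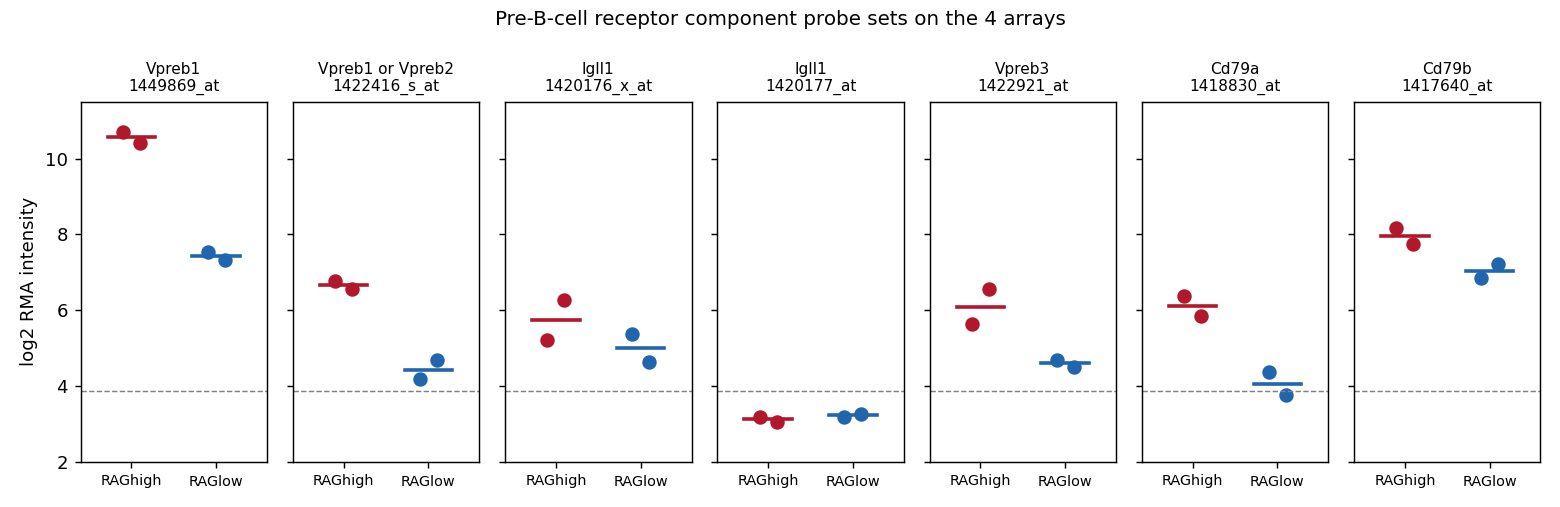
Log2 RMA intensity (vertical axis) on each array for the 6 probe sets of the 5 genes and for the probe set assigned to Vpreb1 and Vpreb2 together; points are arrays, bars are group means and the dashed line is the median of all probe sets, 3.88. The CLP_RAGhigh points lie above the CLP_RAGlow points in every panel except those of Igll1.

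Vpreb1 encodes the part of the surrogate light chain that resembles a variable domain. Its probe set 1449869_at had intensities of 1682 and 1354 on the CLP_RAGhigh arrays, against 185 and 160.3 on the CLP_RAGlow arrays. Every array was far above the dim range, and the groups stood wide apart with little spread within either. On the log2 scale the means (SD, n = 2 each) were 10.56 ± 0.22 in CLP_RAGhigh and 7.43 ± 0.15 in CLP_RAGlow. The difference was 3.13 ± 0.28 (SE), with a 95% interval from 2.45 to 3.82 and a limma adjusted p of 0.0937. It ranked 6 among 18193 genes by limma p and 11 by the size of an upward difference. With an offset of 32 added to the intensities before log2, which damps folds of low signals, the difference was 2.91.

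Vpreb1 has a close copy, Vpreb2. Of the Vpreb1 promoter window with the bases after its start, 156 bases aligned to the Vpreb2 window with 153 identical, from position -106 onward. The stretch began at the first base of the Vpreb2 window, so how far the likeness extends was not tested. The CAGGTG within it lay at -88 to -83 in Vpreb1 and at -232 to -227 in Vpreb2, so the 2 starts are at different places in it. A further probe set, 1422416_s_at, is assigned to both copies and so lies outside the rule used to choose members. Its log2 values were 6.76 and 6.56 in CLP_RAGhigh, against 4.18 and 4.68 in CLP_RAGlow, again with no overlap. The difference was 2.23 ± 0.37, with a limma adjusted p of 0.699 when tested among the single-gene probe sets. Vpreb2 had no probe set of its own here, and the share of either copy in the signal was not tested.

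Igll1 encodes lambda5, the partner of VpreB in the surrogate light chain. Its brighter probe set, 1420176_x_at, had intensities of 37.2 and 77.5 in CLP_RAGhigh, against 41.4 and 24.6 in CLP_RAGlow. CLP_RAGhigh replicate 2 was high, and CLP_RAGhigh replicate 1 lay between the CLP_RAGlow arrays. The difference was 0.75 ± 0.50 (SE) with a 95% interval from -0.48 to 1.98, an adjusted p of 0.983, and values from 0.22 without CLP_RAGhigh replicate 2 to 1.28 without CLP_RAGhigh replicate 1. The _x_ in its name marks a probe set that may also bind other transcripts. The second probe set, 1420177_at, was dim throughout, with intensities of 9.14 and 8.31 in CLP_RAGhigh, against 9.14 and 9.63 in CLP_RAGlow, and a difference of -0.11 ± 0.20. Averaged over both probe sets the difference was 0.32, and with the offset of 32 it was 0.43. No difference of Igll1 was therefore detectable with these probe sets, while its interval does not exclude a difference of the size seen for Vpreb3.

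Vpreb3 encodes a protein that binds free immunoglobulin chains inside the cell during receptor assembly. Its intensities were 49.9 and 94.0 in CLP_RAGhigh, against 25.7 and 22.8 in CLP_RAGlow. The CLP_RAGlow arrays were close to each other. On the log2 scale, CLP_RAGhigh replicate 2 was nearly as far from CLP_RAGhigh replicate 1 as the latter was from the CLP_RAGlow arrays. The means were 6.10 ± 0.65 in CLP_RAGhigh and 4.60 ± 0.12 in CLP_RAGlow, a difference of 1.50 ± 0.42 (SE) with a 95% interval from 0.47 to 2.54 and an adjusted p of 0.813. With the offset of 32 it was 0.85, so the size of this fold depends on how low signals are treated.

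Cd79a encodes Ig-alpha, a signalling chain of the pre-B-cell and B-cell receptors. Its intensities were 82.8 and 57.6 in CLP_RAGhigh, against 20.7 and 13.5 in CLP_RAGlow. All CLP_RAGhigh values were above the CLP_RAGlow values, and CLP_RAGlow replicate 2 lay in the dim range at 3.76. The means were 6.11 ± 0.37 in CLP_RAGhigh and 4.06 ± 0.43 in CLP_RAGlow, a difference of 2.05 ± 0.39 (SE) with a 95% interval from 1.09 to 3.0 and an adjusted p of 0.506. With the offset of 32 it was 1.05, so the size of this fold depends on how low signals are treated.

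Cd79b encodes Ig-beta, the partner of Ig-alpha in the receptor. Its intensities were 289 and 214 in CLP_RAGhigh, against 114 and 149 in CLP_RAGlow. The groups did not overlap, but the gap between the nearest arrays was 7.74 against 7.22 on the log2 scale. The means were 7.96 ± 0.31 in CLP_RAGhigh and 7.03 ± 0.27 in CLP_RAGlow, a difference of 0.93 ± 0.37 (SE) with a 95% interval from 0.02 to 1.84 and an adjusted p of 0.928. Unlike for Cd79a, the signal was well above the dim range on all arrays.

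For each of the 4 separated genes the exact permutation test over the 4 arrays (two-sided) gave p = 0.333, the smallest that 6 splits allow, so the design cannot reach 0.05 with it. For Igll1 it gave 0.667.

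**Figure D2:**
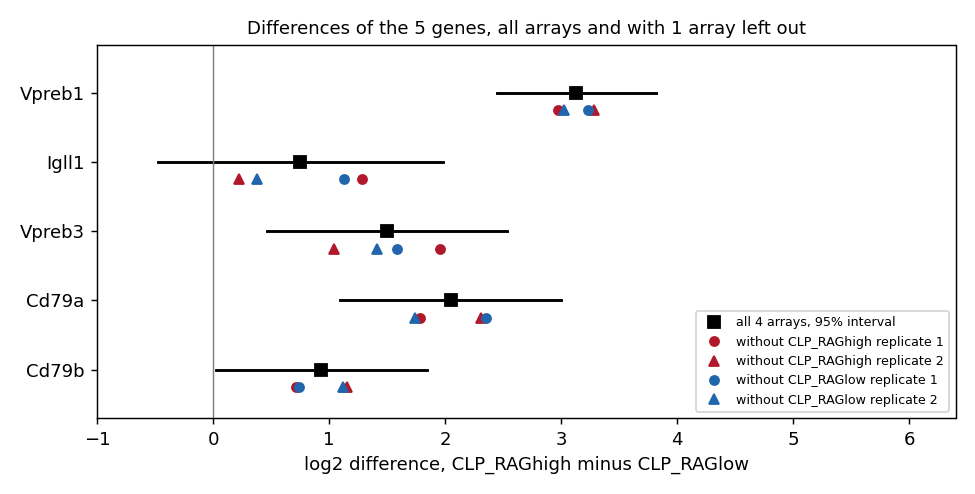
Log2 difference, CLP_RAGhigh minus CLP_RAGlow (horizontal axis), for each gene; squares with lines are the limma estimate and its 95% interval over all 4 arrays, and small symbols are estimates with 1 array left out. Vpreb1 stays between 2.97 and 3.29 with any 1 array left out, whereas Igll1 spans 0.22 to 1.28.

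The genes differed in which CLP_RAGhigh array was higher. Vpreb1, Cd79a and Cd79b were higher on replicate 1 than on replicate 2, at 10.72 and 10.40 for Vpreb1, 6.37 and 5.85 for Cd79a, and 8.18 and 7.74 for Cd79b. Vpreb3 and Igll1 had the opposite order, at 5.64 and 6.55 for Vpreb3 and 5.22 and 6.28 for Igll1. The Euclidean distance between the centred log2 profiles of the genes over the 4 arrays was smallest for Igll1 and Vpreb3, at 0.86, and largest for Vpreb1 and Igll1, at 2.60. Vpreb1 lay nearest to Cd79a, at 1.13. CLP_RAGhigh replicate 1 was also the array with the highest immediate early genes, transcripts induced by stimulation or handling. Their summed intensity over 12 genes was 6900 on that array and 743 on CLP_RAGhigh replicate 2, against 945 and 704 on the CLP_RAGlow arrays, and 2 of the 12 were separated upward and 1 downward. Without that array the differences were 2.97 for Vpreb1, 1.78 for Cd79a, 1.96 for Vpreb3, 0.72 for Cd79b and 1.28 for Igll1.

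Genes of pre-B-cell receptor partners and signalling were mostly higher in CLP_RAGhigh without passing the adjusted test. Of 21 listed genes 17 were measured and the others were not analysed here. The mean was higher in CLP_RAGhigh for 15 genes, against 50.6% of all genes, and lower for 2. The arrays were separated upward, with both CLP_RAGhigh values above both CLP_RAGlow values, for 11 genes, and downward for 0, where 15.4% and 15.8% of all genes were. An unadjusted limma p under 0.05 was found for 7 genes upward and 0 downward, where 2.35% and 2.94% of all genes were, and 0 passed after adjustment. The median difference of the list was 0.46.

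Among the kinases and adaptors, Blk, a Src-family kinase of B cells, averaged 8.18 in CLP_RAGhigh and 6.03 in CLP_RAGlow, with an adjusted p of 0.599. Blnk, the adaptor that links the receptor to phospholipase C, averaged 11.72 and 10.42 in the same order, bright in both groups. Prkcb, a protein kinase C isoform, differed by 2.58 ± 0.59 with its brightest probe set, but its 3 probe sets ran from -0.09 to 2.58 and averaged 1.21. Pik3cd, a catalytic subunit of PI3 kinase, differed by 1.37 ± 0.46 (0.77 with its 6 probe sets averaged). Inpp5d, the phosphatase SHIP that opposes PI3 kinase, differed by 0.81 ± 0.27. Of genes named after their values were seen, Ighm, the gene of the mu heavy chain, averaged 11.69 in CLP_RAGhigh and 11.38 in CLP_RAGlow, and its arrays overlapped. Syk, the kinase that docks on Cd79a and Cd79b, averaged 10.37 and 9.83 in the same order, a difference of 0.54 ± 0.26. Whether the Ighm RNA came from a rearranged gene, whose chain can pair with the surrogate light chain, was not tested.

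Transcription factors of the early B lineage, listed without regard to action on the 5 genes, more often had higher than lower means in CLP_RAGhigh. None passed the adjusted test. All 18 listed factors were measured, and CLP_RAGhigh had the higher mean for 13 of them and the lower for 5. Arrays were separated for 9 upward and 2 downward, where 15.4% and 15.8% of all genes were. An unadjusted p under 0.05 was found for 4 upward and 1 downward, against 2.35% and 2.94% of all genes, and 0 passed after adjustment. The list median was 0.39.

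Ebf1, which is known to act on Vpreb1, Igll1, Cd79a and Cd79b in early B cells, had log2 values of 9.28 and 9.85 in CLP_RAGhigh, against 5.24 and 6.59 in CLP_RAGlow. The groups were far apart, although its 5 probe sets ran from -0.09 to 3.69. Pou2af1, the coactivator of octamer-binding factors, had 8.16 and 7.97 in CLP_RAGhigh, against 2.30 and 1.75 in CLP_RAGlow, where it was dim, and its difference of 6.04 was 3.05 with the offset of 32. Irf4, which acts at the pre-B stage and later, differed by 1.99 ± 0.58 (1.09 with its 2 probe sets averaged). Bach2, a repressor active in the B lineage, differed by 1.01 ± 0.37 (0.37 with its 3 probe sets averaged), and Irf8 by -0.65 ± 0.26. Of factors named after their values were seen, Pax5, the factor that commits cells to the B lineage, averaged 4.75 in CLP_RAGhigh and 3.73, in the dim range, in CLP_RAGlow. Tcf3, which encodes the E proteins that bind E-boxes, averaged 7.29 in both groups, with a difference of 0.01 ± 0.48.

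**Figure D3:**
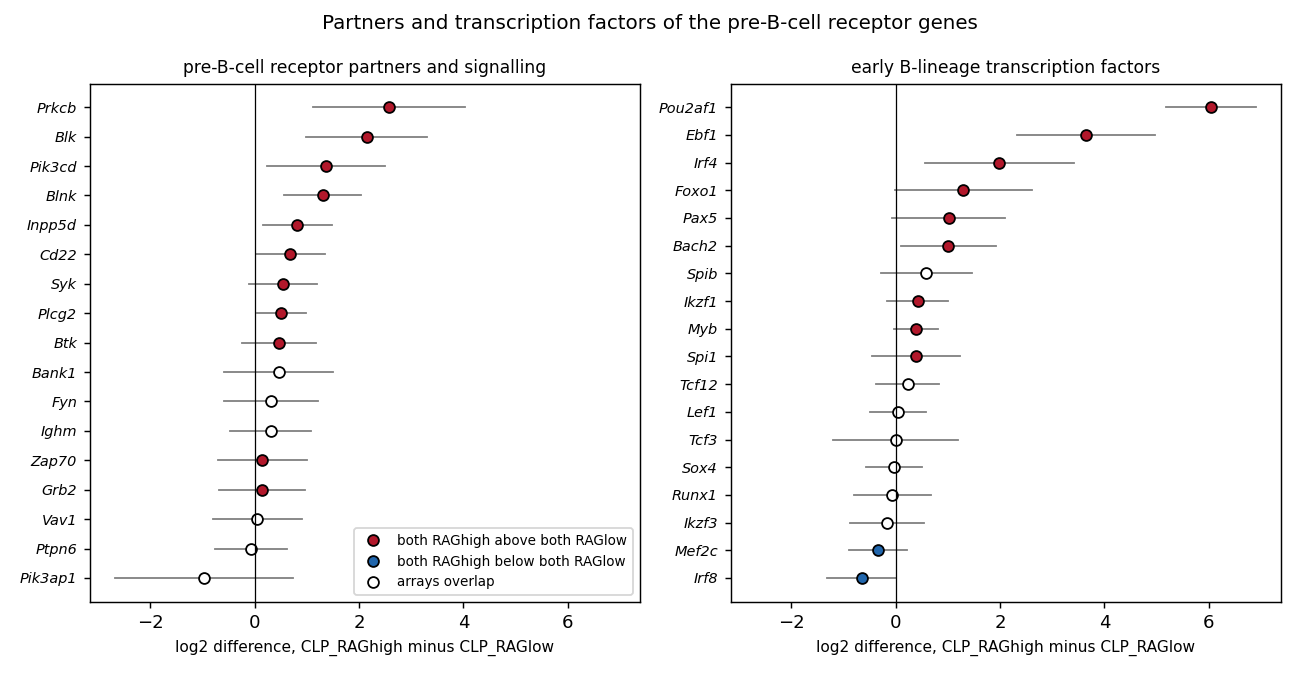
Log2 difference, CLP_RAGhigh minus CLP_RAGlow (horizontal axis), with 95% limma intervals for 17 partner and signalling genes (left) and 18 transcription factors (right); red marks genes with both CLP_RAGhigh arrays above both CLP_RAGlow ones, blue the reverse and white overlapping arrays. On the left 11 genes are red and 0 are blue, and on the right 9 are red and 2 are blue.

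Markers of other cell types were compared on the same arrays, and their counts stand beside the 15.4% of all genes separated upward and the 15.8% separated downward. Mature B and plasma cell markers had 3 of 11 genes separated upward and 2 downward, and their summed intensity was 4754 to 5831 in CLP_RAGhigh and 3878 to 4998 in CLP_RAGlow. Over the 4 arrays 7 of the 11 were at or above the median. H2-Ob and Xbp1 were bright in both groups, at 11.24 and 10.63 in CLP_RAGhigh and 10.80 and 10.79 in CLP_RAGlow. Cd74 and Cd40 were also above the dim range in both groups. The 4 others, Ms4a1, Cr2, Fcer2a and Prdm1, were dim in both groups. They averaged 2.79, 3.02, 3.11 and 2.96 in CLP_RAGhigh and 3.18, 3.02, 3.27 and 2.44 in CLP_RAGlow. The 3 genes separated upward were Cd22, Sdc1 and Tnfrsf13c, with differences of 0.68, 0.64 and 0.74. T cell markers had 5 of 10 genes separated upward and 0 downward, with summed intensities of 298 to 303 in CLP_RAGhigh and 184 to 203 in CLP_RAGlow. Cd3g, Cd3d, Cd8b1, Cd2 and Bcl11b were dim in both groups. Cd3e, Cd4 and Cd8a were above the dim range in both, at 4.68, 4.77 and 4.91 in CLP_RAGhigh and 4.72, 4.91 and 4.65 in CLP_RAGlow. Of the T cell markers separated upward, Cd247 averaged 7.16 in CLP_RAGhigh and 5.85 in CLP_RAGlow. Cd5, also separated upward, averaged 4.87 in CLP_RAGhigh and 3.87 in CLP_RAGlow. Plasmacytoid dendritic markers had 4 of 8 separated downward and 1 upward, and mitotic genes, a measure of dividing cells, 6 of 11 downward and 0 upward. Summed mitotic intensity was 2129 to 3777 in CLP_RAGhigh and 4694 to 7214 in CLP_RAGlow. Natural killer markers had 3 of 9 separated upward and 1 downward, myeloid markers 2 of 12 and 1, erythroid markers 2 of 7 and 0, and stromal markers 0 of 10 in either direction. The granulocyte genes Ngp and S100a8 were bright on both CLP_RAGhigh arrays and on CLP_RAGlow replicate 1, and dim only on CLP_RAGlow replicate 2. Ngp had 9.01 and 9.72 in CLP_RAGhigh, against 10.4 and 3.8 in CLP_RAGlow, and S100a8 had 9.63 and 9.60 in CLP_RAGhigh, against 10.1 and 3.81 in CLP_RAGlow. S100a9 and Ltf were also lowest on that array, CLP_RAGlow replicate 2, at 3.79 and 3.87. Without it the differences were 3.03 for Vpreb1, 0.38 for Igll1, 1.42 for Vpreb3, 1.74 for Cd79a and 1.12 for Cd79b. Csf1r, a receptor of monocytes and their precursors, differed by -1.90 ± 0.52, and Klf1, an erythroid factor, by 2.02 ± 0.62. The part of other cell types or of cycling in the differences of the receptor genes was not tested.

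The chromosomal neighbours of the 5 genes, taken from the RefSeq gene table (GRCm38.p6), were compared on the same arrays. Vpreb1 and Igll1 are next to each other on chromosome 16. Top3b, a topoisomerase gene on the other side of Vpreb1, averaged 9.32 in CLP_RAGhigh and 9.33 in CLP_RAGlow, so Vpreb1 stood between neighbours with no detectable difference. Spag6l, on the other side of Igll1, was dim in both groups. Cd79a on chromosome 7 lies between the ribosomal protein gene Rps19, which averaged 11.06 in both groups, and Arhgef1, whose difference of 0.82 ± 0.53 came with overlapping arrays. Cd79b on chromosome 11 lies between Gh and Prr29, with differences of -0.30 ± 0.30 and 0.12 ± 0.26.

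The neighbours of Vpreb3 on chromosome 10 included genes with large upward differences. Chchd10, which encodes a mitochondrial protein and is the next measured gene on the lower-coordinate side, had log2 values of 10.82 and 10.36 in CLP_RAGhigh, against 8.47 and 8.60 in CLP_RAGlow. It was bright in both groups, its arrays were separated, and its difference of 2.05 ± 0.26 (adjusted p of 0.256) was above that of Vpreb3 itself, with its second probe set at 1.15. On the higher-coordinate side Zfp280b differed by 0.66 ± 0.36. A window of 200 kb around each gene was chosen after these values were seen. Around Vpreb3 it held 14 measured protein-coding genes, 7 separated upward and 0 downward, with upward differences of 1 log2 unit or more for 3, which 2.43% of all genes had, while 15.4% of all genes were separated upward. These were Chchd10, Mmp11, a matrix metalloproteinase gene, at 1.73 ± 0.67, and Gstt2, a glutathione transferase gene, at 1.42 ± 0.34. The remaining windows held 0 such genes beside the members, of 3 around Vpreb1 and Igll1, 10 around Cd79a and 14 around Cd79b. In the other direction, Ern1 and Ftsj3 in the Cd79b window differed by -1.10 ± 0.25 and -1.07 ± 1.17, the first with separated and the second with overlapping arrays.

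**Figure D4:**
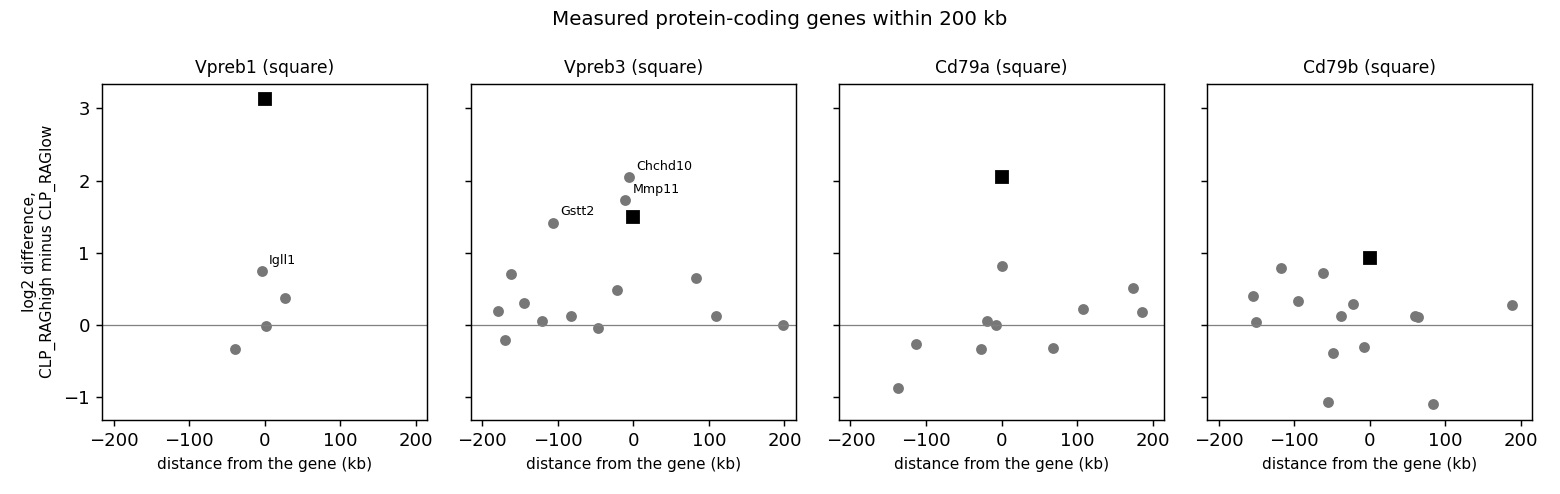
Log2 difference, CLP_RAGhigh minus CLP_RAGlow (vertical axis), of measured protein-coding genes against their distance in kb from Vpreb1, Vpreb3, Cd79a or Cd79b (horizontal axis); squares are the named genes and grey points their neighbours. Around Vpreb3, Chchd10, Mmp11 and Gstt2 lie above 1, while around the other 3 genes every neighbour lies below 1, with Ern1 and Ftsj3 near Cd79b at -1.10 and -1.07.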

How the data were processed

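The 4 arrays form 2 groups of 2, by their titles. What the authors deposited is an intensity per probe set from RMA, per the labels' series design, and the values run from 2.35 to 19892.5 on a linear scale. The software is not given in the sources used here. Of 45101 rows, 64 were controls and were left out, and probe sets with several genes (932) or none (9160) were not used, apart from the shared Vpreb1 and Vpreb2 set. The log2 was taken, and the probe set with the highest mean stood for its gene. Differences were fitted over all 18193 genes with limma 3.58.1 in R 4.3.3 (lmFit and eBayes with an intensity trend, two-sided, Benjamini-Hochberg, 0.05), with 2 residual and 3.75 prior degrees of freedom. The fit was tested on simulated data. The number of arrays limits the precision.

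The 5 genes and the lists were chosen with earlier results of these data known. Named from each pathway list were the 5 separated genes with the smallest p, further the nearest neighbours and the genes with the most similar profiles. Other pathway genes are said to be chosen afterwards. Single genes of the marker lists were also named after their values were seen, without a rule set beforehand. Promoter windows were aligned with Biopython 1.88, and figures drawn with matplotlib 3.10.9. Across genes, deviations of arrays with equal replicate numbers correlated at -0.02, so the numbers were not taken as pairs.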

Additional observations from a re-analysis of the deposited data

How the results depend on the processing

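The 5 differences were recomputed under 14 alternatives, giving 71 values, of which 68 kept their direction and their side of the threshold. Igll1 was reversed at -0.11 without cross-hybridising probe sets, and at -0.11 for its second probe set tested on its own, since both rest on 1420177_at. With the replicate number as a block, Vpreb1, at 3.13, had a limma adjusted p of 0.0368, with 0.0368 to 0.930 over its alternatives, and 1 of the 5 genes and 7 of all genes passed. The numbers are not shown to pair the samples, the block changed no other adjusted call among the 5 genes, and 3 of the 5 then had an unadjusted p under 0.05, with Cd79b at 0.0642. The count over all genes was 2 with probe sets averaged, 1 with dim genes left out and 3 after a second quantile normalization, against 0; the cause was not tested. With 1 array left out, when the lone array is assumed to vary like the others, 2 to 4 of the 5 genes had an unadjusted p under 0.05, with 2 without CLP_RAGlow replicate 1 and 2 without CLP_RAGlow replicate 2. The differences then ran from 2.97 to 3.29 for Vpreb1, 0.22 to 1.28 for Igll1, 1.04 to 1.96 for Vpreb3, 1.74 to 2.35 for Cd79a and 0.72 to 1.15 for Cd79b. Signal near background limits Igll1 and, in CLP_RAGlow, Cd79a and Vpreb3.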

Other observations

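Among 11571 genes above the median, those whose centred log2 profile over the 4 arrays lay nearest to the mean profile of the 5 genes were Entpd1, which encodes the ectonucleotidase CD39, Gstt2, Ankrd50, Kcng1, Ahi1 and Ttc38, at Euclidean distances from 0.28 to 0.36. Entpd1 had 6.23 and 6.74 in CLP_RAGhigh, against 5.03 and 4.63 in CLP_RAGlow, and its 3 probe sets ran from 0.68 to 1.65. Gstt2, from the Vpreb3 neighbourhood, had 6.11 and 6.10 in CLP_RAGhigh, against 4.87 and 4.50 in CLP_RAGlow. For Kcng1 and Ahi1 the second probe set gave 0.14 and 0.06. Nearest to Vpreb1 were Zfp563, Gimap4, a GTPase gene of lymphocytes, Trem1 and 4930503L19Rik, at distances from 0.50 to 0.53. Gimap4 had 10.55 and 10.46 in CLP_RAGhigh, against 7.01 and 7.45 in CLP_RAGlow, and its 2 probe sets gave 3.27 and 3.52. The other probe sets of Trem1 and 4930503L19Rik gave 0.07 and -0.60. With 4 arrays, a small distance describes these samples only.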
